A study of Homo sapiens with 2 samples.

Results

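The insulin-like growth factor (IGF) axis was taken as 10 genes, the ligand genes IGF1 and IGF2, the receptor gene IGF1R and the binding protein genes IGFBP1 to IGFBP7, out of 19974 protein-coding genes in the RefSeq annotation of GRCh38. A JUNB peak was assigned to a gene when its summit, the base with the most stacked fragments, lay within 50 kb of the annotated gene span. IGFBP1 and IGFBP3 are neighbours on chromosome 7, and IGFBP2 and IGFBP5 are neighbours on chromosome 2, so each pair was treated as 1 locus, which gave 8 loci. They held 30 of 32550 peaks in the untreated list and 22 of 25739 in the etoposide list.

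IGF1 and IGF2 are secreted growth factors that act through the receptor tyrosine kinase encoded by IGF1R, which signals to growth and survival through the PI3 kinase and MAP kinase pathways. The secreted IGF binding proteins hold the ligands outside the cell, prolong their life and limit or deliver them to the receptor, and proteases release the ligand again. Several of these binding proteins are among the factors secreted by senescent fibroblasts, the senescence-associated secretory phenotype. JUNB is a subunit of AP-1, a dimeric transcription factor that binds the sequence TGANTCA, mostly at enhancers.

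JUNB occupancy was profiled by CUT&RUN, in which an antibody guides a nuclease to its target on chromatin and the released DNA fragments are sequenced. The cells were IMR-90 human lung fibroblasts, either untreated or treated with etoposide, a topoisomerase II poison. It leaves double-strand breaks in DNA and can drive fibroblasts into senescence. The dose and duration of etoposide were not given in the sources used here. There was 1 library of each condition, so the design has no replicate check, no test of the treatment was made, and the comparison describes these 2 libraries. Peak lists hold no expression values, so the cell type was not checked against marker genes and nothing below says whether a gene was transcribed.

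The deposited fold and p of a peak together give the number of fragments at its summit, which had a median of 15 over all untreated and 13 over all etoposide peaks. The etoposide library had an estimated 0.836 times the depth of the untreated one, and 0.791 times its peak number. All intervals given are 95% intervals from counting alone.

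All 10 genes had an untreated peak within 50 kb, where 72.0% of all protein-coding genes did. With etoposide 9 of 10 had one, against 62.6% of all protein-coding genes, and the gene without one was IGF2. Thus 9 genes had a peak in both lists (58.6% of all genes did), 1 had untreated peaks alone (13.5%) and 0 had etoposide peaks alone (4.05%). Among peaks with a -log10 q of at least 5, untreated peaks were left at 8 genes and etoposide peaks at 9. The genes lost from the untreated list were IGFBP1 and IGFBP3, through their common place with 9 fragments in either library. Its -log10 q was 4.72 untreated and 6.06 etoposide. Peaks at this cutoff numbered 24 untreated and 18 etoposide, and the share of all genes was not counted. In the full lists the 9 genes other than IGF2 had at least 1 peak shared by both lists, meaning an overlap of at least 1 bp, against 51.1% of all protein-coding genes. A peak in the overlapping windows of neighbouring binding protein genes counts for both of them. By locus the numbers were 8 of 8 untreated and 7 of 8 etoposide. These shares also depend on gene length and window, since IGF1R spans 316 kb and IGFBP6 4.67 kb. Inside the span itself, 8 of 10 genes had an untreated peak, against 33.4% of all protein-coding genes, and 5 of 10 had a peak with etoposide, against 27.7%. The numbers within 10 kb of the span were also 8 (against 49.6% of all genes) and 5 (against 38.9%).

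The windows of the 10 genes together covered 1.42 Mb and held 21.2 untreated and 15.5 etoposide peaks per Mb. The windows of all protein-coding genes held 13.6 and 10.2 per Mb. IGF1R alone supplied 12 of the 30 untreated and 11 of the 22 etoposide peaks. Without it the density was 18.0 untreated and 11 etoposide peaks per Mb. The median gene of the axis had 3 untreated and 1.5 etoposide peaks, and the median protein-coding gene had 2 and 1.

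**Figure D1:**
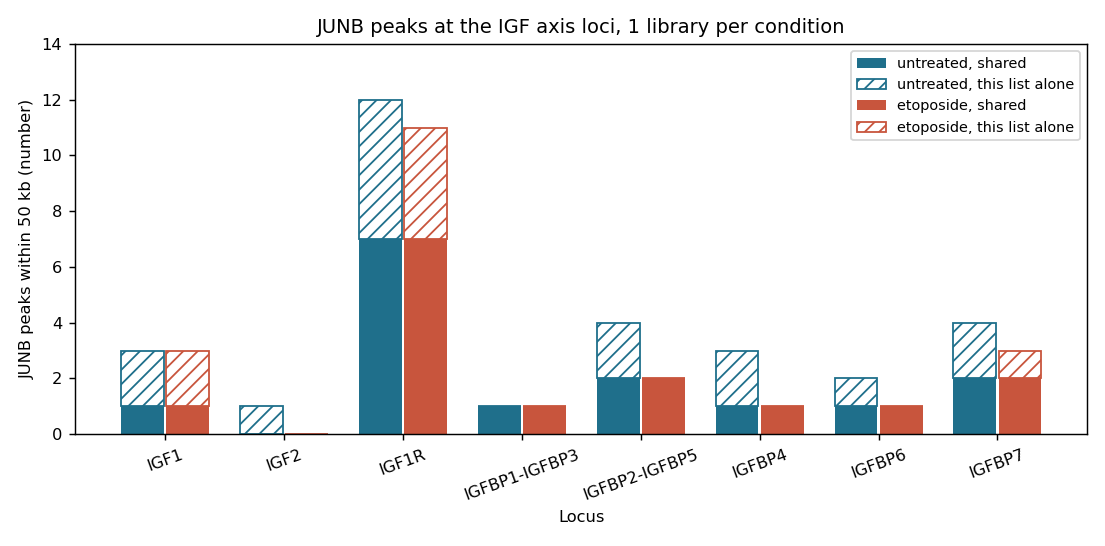
Number of JUNB peaks (vertical axis) with a summit within 50 kb of the genes of each IGF axis locus (horizontal axis), in 1 untreated and 1 etoposide library; solid bars are peaks with an overlapping peak in the other list, hatched bars are peaks of that list alone. IGF1R had 12 untreated and 11 etoposide peaks, of which 7 in each list were shared, and no other locus had more than 4.

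The start sites of the genes were examined next, because a JUNB peak there would lie at the promoter itself. Start sites were listed for 7 of the 10 genes, and IGF2, IGFBP1 and IGFBP7 had no entry. No untreated summit lay within 1 kb of a start site of these 7 genes, where 17.5% of protein-coding genes with a listed start had one. With etoposide 1 of 7 did, IGFBP6 at 0.972 kb, against 6.61%. Within 10 kb there were 3 of 7 untreated (IGFBP2, IGFBP4 and IGFBP6, against 33.4%) and 1 of 7 etoposide (IGFBP6, against 21.0%). IGFBP2 counted only through a listed start inside the gene, at chr2:216659567, with the summit 8.01 kb upstream of it. The summit was farther than 10 kb from the first IGFBP2 start, at chr2:216632828.

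The 250 bases before the start are shown for 4 genes, in which capitals mark the GC box GGGCGG on either strand and the TATA motif TATAAA on either strand. IGFBP6 is shown as the gene with the peak nearest to a listed start, IGF1R as the gene with the most peaks and IGFBP4 as a gene with a JUNB peak in its body in the untreated list alone. SPRYD3, a gene beside IGFBP6, is shown because its promoter was the only listed promoter that a peak of these loci overlapped. All are from RefSeq, GRCh38.p14, read in the direction of transcription.
IGFBP6, chr12:53097417-53097666, plus strand: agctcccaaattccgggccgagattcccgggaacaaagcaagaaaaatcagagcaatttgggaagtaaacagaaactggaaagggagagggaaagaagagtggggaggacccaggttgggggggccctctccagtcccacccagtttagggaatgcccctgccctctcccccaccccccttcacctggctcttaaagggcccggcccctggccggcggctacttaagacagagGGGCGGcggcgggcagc
IGF1R, chr15:98648289-98648538, plus strand: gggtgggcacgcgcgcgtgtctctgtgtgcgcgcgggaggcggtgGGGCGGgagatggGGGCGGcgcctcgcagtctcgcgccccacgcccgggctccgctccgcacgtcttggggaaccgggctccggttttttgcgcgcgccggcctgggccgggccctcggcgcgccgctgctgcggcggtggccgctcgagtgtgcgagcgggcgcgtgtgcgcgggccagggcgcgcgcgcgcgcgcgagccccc
IGFBP4, chr17:40443200-40443449, plus strand: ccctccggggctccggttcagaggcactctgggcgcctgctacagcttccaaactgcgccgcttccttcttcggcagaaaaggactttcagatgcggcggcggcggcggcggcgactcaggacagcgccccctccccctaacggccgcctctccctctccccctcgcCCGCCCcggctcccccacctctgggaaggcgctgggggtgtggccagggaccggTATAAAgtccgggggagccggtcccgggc
SPRYD3, chr12:53079391-53079640, minus strand: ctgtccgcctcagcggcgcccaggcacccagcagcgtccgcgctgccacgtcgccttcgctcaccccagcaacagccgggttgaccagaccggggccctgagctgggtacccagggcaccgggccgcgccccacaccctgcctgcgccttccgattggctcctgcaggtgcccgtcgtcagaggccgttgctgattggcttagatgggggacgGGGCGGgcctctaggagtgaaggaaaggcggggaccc

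The IGF1R stretch has 81.2% G and C with 2 GC boxes, and the IGFBP4 stretch has 71.6% with 1 GC box and a TATA motif that begins 29 bases before the start. IGFBP6 has 61.2% G and C and 1 GC box. The AP-1 motif TGANTCA and the related motif TGACGTCA, which both read the same on either strand, had no match in any of the 10 start windows of the 7 genes. Over all 35116 windows of this length, 6.57% held TGANTCA, 1.65% held TGACGTCA, 42.6% held the GC box and 10.7% held TATAAA. The GC box was found in 5 of the 7 genes (IGF1R, IGFBP2, IGFBP3, IGFBP4 and IGFBP6) and TATAAA in IGFBP4 alone. Counted by window, as the shares over all windows are, the GC box was in 6 of 10 and TATAAA in 1 of 10. The sequence under the peaks was not used here, so the motif was not searched there.

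Of the ligand genes, IGF1 encodes the growth hormone-dependent ligand that fibroblasts also make locally. It lies on chromosome 12 at 102395874 to 102481839 on the minus strand, and had 3 peaks in each list. The strongest of these was shared and lay 45.7 kb upstream of the gene's start, inside the long non-coding RNA gene LINC02456. It held 22 fragments without treatment (13.8 to 33.3; chr12:102527073-102527882) and 20 after etoposide (12.2 to 30.9; chr12:102527029-102527817), with summits 20 bp apart. It ranked 7175 in the untreated and 4990 in the etoposide list. The counts in the 2 libraries were alike within counting error. A stronger shared peak lay just outside the window, 58.0 kb from the IGF1 span in the untreated list, with 30 untreated and 32 etoposide fragments. Which peak is the strongest near IGF1 thus depends on the 50 kb limit.

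Inside IGF1 no place was listed in both libraries. The untreated list had weak peaks of 5 fragments (chr12:102410814-102411015) and 7 fragments (chr12:102421896-102422097), at ranks 32446 and 30099 of 32550, close to the end of the list. All 4 peaks inside IGF1 also lay inside LINC02456, so they cannot be given to IGF1 alone. The etoposide list had a peak of 13 fragments (6.92 to 22.2; chr12:102427121-102427325, rank 7776) and another of 9 fragments at chr12:102462998-102463186, rank 19604. These 4 peaks lay at different places, so their counts do not compare the libraries at any of them. A peak missing from a list can still have fragments under the threshold.

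IGF2, the fetal growth factor gene of the imprinted region on chromosome 11, was the only gene of the axis with no etoposide peak in its window. Its single untreated peak, at chr11:2142232-2142620, had 10 fragments (4.80 to 18.4) and ranked 20999. The summit lay inside IGF2, the read-through gene INS-IGF2 and the antisense gene IGF2-AS, so it cannot be given to IGF2 alone. A shared peak lay just outside the window, 51.6 kb from IGF2, with 19 fragments in either library. The absence of an etoposide peak at IGF2 thus depends on the 50 kb limit.

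IGF1R, the receptor gene, lies on chromosome 15 at 98648539 to 98964530 on the plus strand and had the most peaks of any gene of the axis, in the longest window. It had 12 untreated peaks, a number reached by 1.45% of protein-coding genes, and 11 etoposide peaks, reached by 0.961%. Per 100 kb of window it had 2.88 untreated and 2.64 etoposide peaks, and 15.7% and 8.69% of genes had as many or more for their length. By this measure IGFBP5 was denser in the untreated list, with 3.24 peaks per 100 kb. Of the untreated peaks 11 of 12 lay inside the gene, and of the etoposide peaks 11 of 11 did.

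The IGF1R peak with the most fragments in either list lay in the downstream part of the gene. It belonged to a run of 4 shared peaks between 242 and 267 kb from the start. Some IGF1R peaks outside the run had more fragments than its weaker members. The strongest peak of all 8 loci by fragments and rank, at chr15:98896304-98897654 in the untreated list, had 58 fragments (44.0 to 75) and ranked 595. It stood on a local background of 5.09, with a fold of 9.69. Its etoposide counterpart at chr15:98896554-98897666 had 39 fragments (27.7 to 53.3) and ranked 723. Both were broad peaks, with summits 17 bp apart.

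The shared peak before it in the run, at chr15:98890072-98890571, had 39 untreated and 27 etoposide fragments and ranked 1265 and 1587. The one after it, at chr15:98903577-98903843, had 28 untreated and 19 etoposide fragments. The last, at chr15:98914586-98915573, had 22 untreated and 17 etoposide fragments. The etoposide count was the lower one at each of the 4 places, and at each the 2 intervals overlapped. The run was 24.9 kb long in the untreated and 24.8 kb in the etoposide list. Of all shared untreated peaks 0.981% opened a run of at least 4 within 25 kb, and of all shared etoposide peaks 0.995% did, a criterion set after the run had been seen.

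The other 3 shared peaks of IGF1R were nearer to the start. At 218 kb the counts were 23 untreated (14.6 to 34.5) and 12 etoposide (6.20 to 21.0), the lowest ratio of any shared peak of the axis. At 79 kb (chr15:98727497-98728189) they were 25 and 19, with summits 400 bp apart. At 41 kb both peaks were weak, with 11 and 8 fragments.

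Peaks without a counterpart were interspersed among these. The strongest of either list was an etoposide peak with 24 fragments (15.4 to 35.7; chr15:98878399-98878629) at 230 kb, which ranked 1523 of 25739. The strongest untreated one at this locus had 21 fragments (13.0 to 32.1; chr15:98983311-98983544) and lay 18.9 kb past the end of IGF1R, inside PGPEP1L. A neighbouring pair of untreated peaks at 152 and 155 kb had 16 and 15 fragments. The remaining single-list peaks had 10 and 7 fragments in the untreated and 13, 8 and 6 in the etoposide list.

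**Figure D2:**
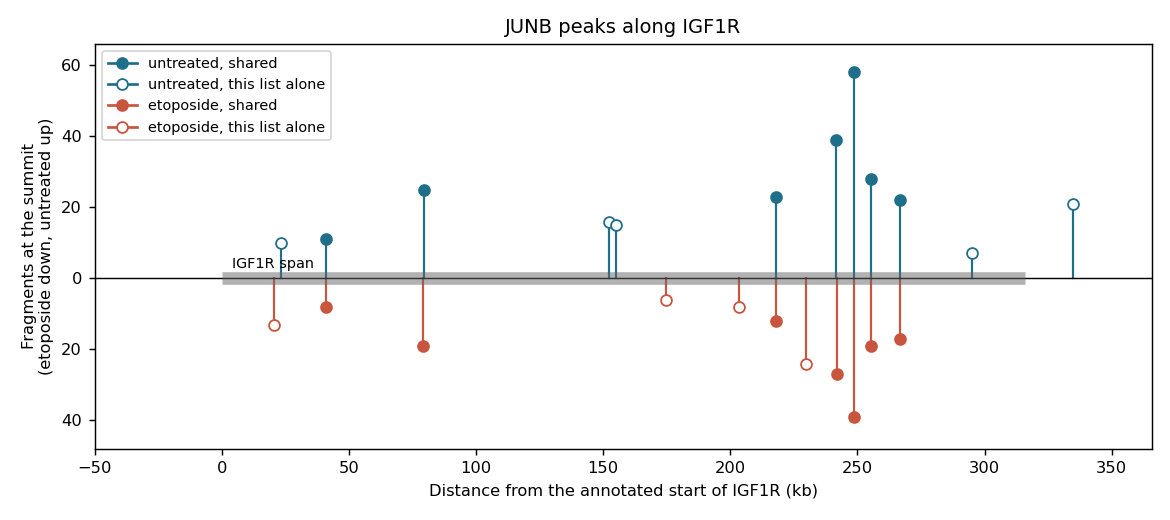
JUNB peaks along IGF1R, with the distance of the summit from the annotated start in kb on the horizontal axis and the number of fragments at the summit on the vertical axis (untreated upward, etoposide downward); filled circles are shared peaks, open circles peaks of 1 list, and the grey bar is the gene. The run of 4 shared peaks at 242 to 267 kb includes the highest peak in either direction, with 58 and 39 fragments, and the first 20 kb of the gene held no peak.

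Genes outside the axis had similar numbers of peaks. Likeness to IGF1R was measured by the numbers of untreated, etoposide and shared untreated peaks within 50 kb, over the 2 libraries. SH3RF3 and PCCA had the same 12, 11 and 7 as IGF1R, and EYA4 had 12, 10 and 7.

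Among the binding protein genes, IGFBP1, which encodes an insulin-regulated liver product, and IGFBP3, which encodes the main carrier of IGF in serum, shared a single weak place. It lay 13.7 kb before IGFBP1 and 37.5 kb from IGFBP3, inside CCDC201. The untreated peak (chr7:45874650-45874854) had 9 fragments and ranked 29169, and the etoposide peak (chr7:45874723-45875169) had 9 fragments and ranked 18653. No summit lay inside IGFBP1 or IGFBP3 in either list. A stronger shared peak lay beyond the window, 56.9 kb from IGFBP3, with 22 untreated and 30 etoposide fragments.

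IGFBP5, which encodes a binding protein that attaches to extracellular matrix, had a shared peak inside the gene, 13.0 kb downstream of its start. The untreated peak (chr2:216682404-216682631) had 20 fragments (12.2 to 30.9) and the etoposide peak (chr2:216682428-216682665) had 17 (9.90 to 27.2), at ranks 5820 and 3822. A second shared peak lay 18.4 kb upstream of the start, inside the non-coding gene IGFBP-AS1, with 16 fragments in either library. An untreated peak 18.9 kb upstream, at chr2:216714331-216714538, had the same 16 fragments on the same local background of 1.78 and no etoposide counterpart.

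IGFBP2, the neighbour of IGFBP5, encodes a binding protein that carries both ligands. It had an untreated peak inside the gene with 10 fragments (chr2:216651428-216651631), which ranked 19493 and was not in the etoposide list. The IGFBP5 peaks fell into its window as well, the farther shared one at 49.5 kb and thus just inside the limit. The additional untreated peak of that region lay just beyond 50 kb. By locus IGFBP2 and IGFBP5 had 4 untreated and 2 etoposide peaks, and both etoposide peaks were shared.

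IGFBP4 encodes a binding protein that mostly inhibits IGF action until it is cut by the protease PAPPA. Its span, chromosome 17 at 40443450 to 40457725, held an untreated peak of 21 fragments (13.0 to 32.1; chr17:40452508-40452734, rank 7489), 9.15 kb downstream of the start. The etoposide list had no peak inside the gene. A weaker untreated peak of 10 fragments lay 13.4 kb past its end, also without a counterpart.

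The strongest peak of the IGFBP4 window was shared but lay 28.7 kb past the gene, inside TNS4, the gene of a focal adhesion protein. It held 44 fragments without treatment (32.0 to 59.1; chr17:40485941-40486819, rank 607) and 31 after etoposide (21.1 to 44.0; chr17:40486328-40486795, rank 734). Its summits were 8 bp apart. By fragments and rank it came next after the strongest IGF1R peak in both lists. By fold over local background it was the higher one, with 13.5 untreated and 12.4 etoposide, against 9.69 and 9.85 for the IGF1R peak. The peak list does not show which gene, if any, such a place acts on.

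IGFBP6, whose product prefers IGF2 to IGF1, had the JUNB summit nearest to a start among the 7 genes with a listed start site. The untreated peak (chr12:53098793-53099479) had 17 fragments (9.90 to 27.2) with its summit 1.70 kb downstream of the start. The etoposide peak (chr12:53098553-53098970) had 12 fragments (6.20 to 21.0) with its summit at 0.972 kb. These peaks overlapped by 178 bp but their summits were 724 bp apart, the widest separation of any shared pair of the axis, so they count as shared by overlap and not by summit position. The other untreated peak of the window, of 10 fragments, overlapped the promoter of SPRYD3 shown above and ranked 30894.

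IGFBP7 encodes a secreted protein that binds IGF weakly, and it is known as a factor released by senescent cells. Within the gene there were 2 shared peaks. One had 20 untreated and 12 etoposide fragments (chr4:57065023-57065544 in the untreated list), and the other had 19 and 17 (chr4:57081140-57081879). Their intervals overlapped between the libraries.

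Outside IGFBP7 the lists differed. Positions are given by coordinate, since IGFBP7 had no listed start site. The untreated list had a peak of 20 fragments inside POLR2B, 9.94 kb below the lower coordinate of the gene. Another of 21 fragments (13.0 to 32.1; chr4:57119264-57119564, rank 5336) lay 9.02 kb above the upper coordinate of IGFBP7, inside IGFBP7-AS1. Neither was in the etoposide list, which had a peak of 5 fragments 26.7 kb above the upper coordinate, at rank 25681 of 25739.

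**Figure D3:**
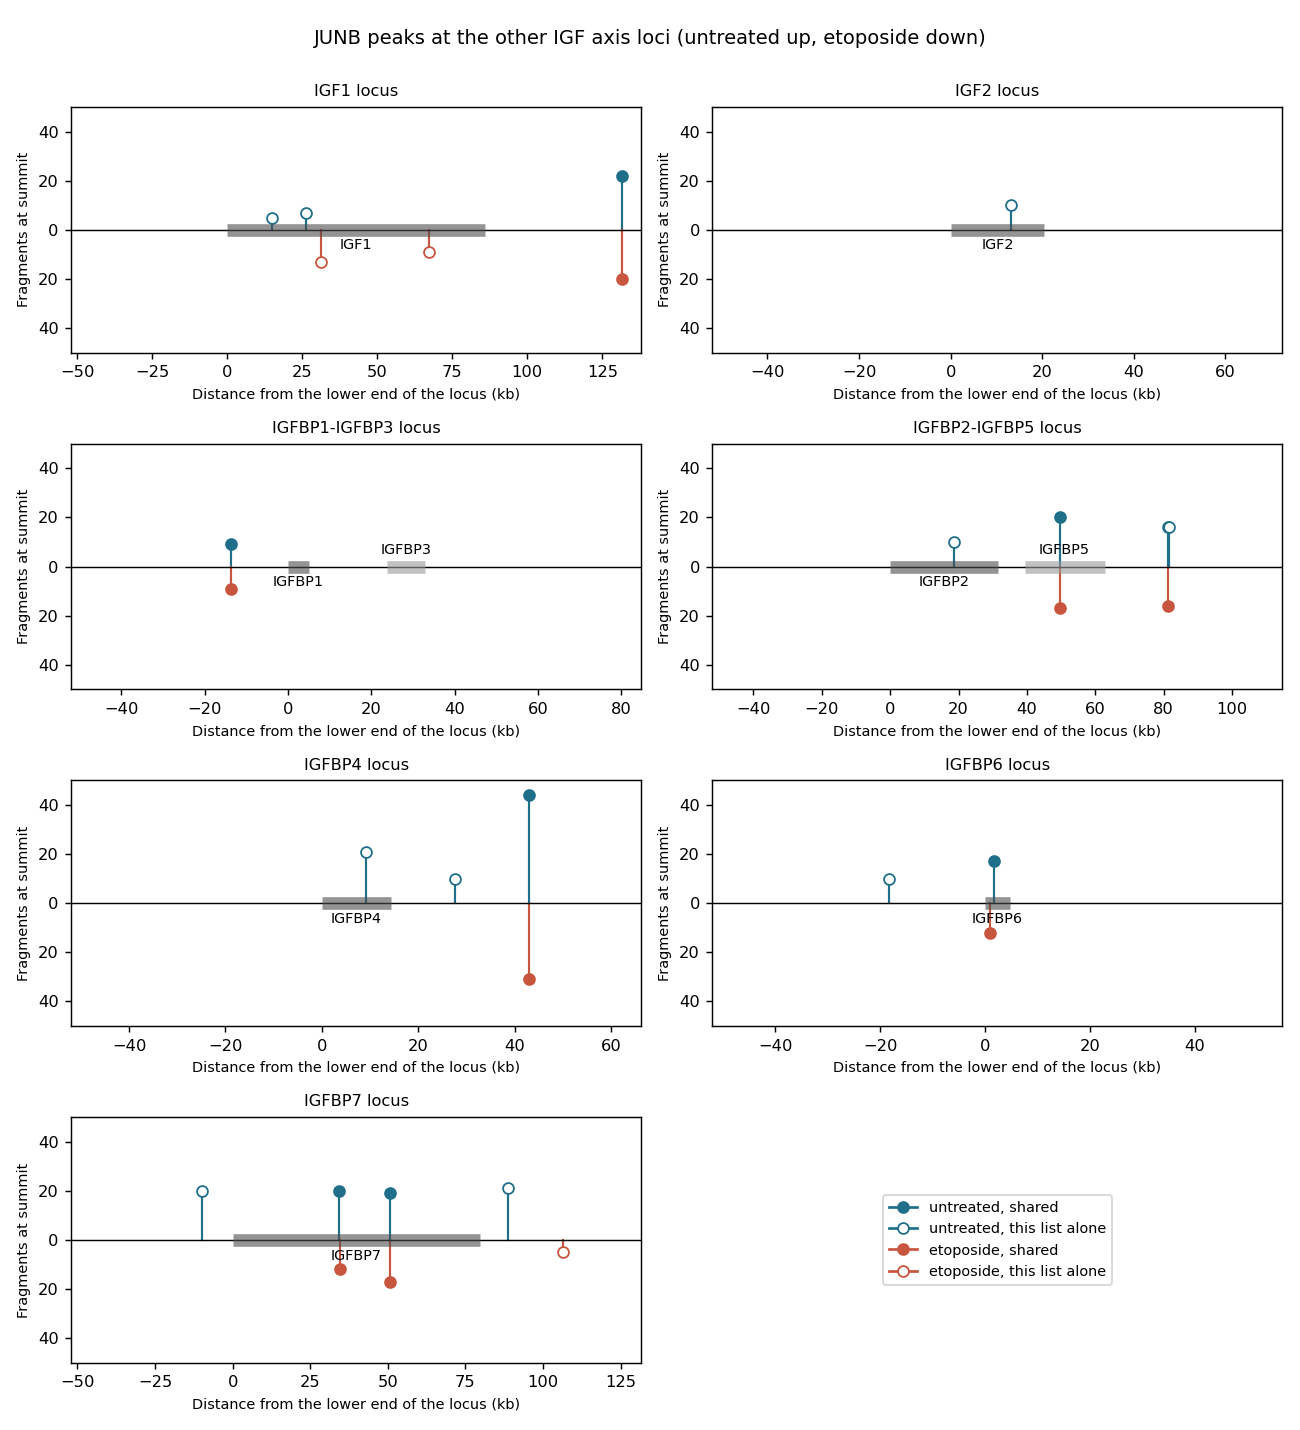
JUNB peaks at the 7 loci other than IGF1R, with distance in kb from the lower coordinate of the locus on the horizontal axis and fragments at the summit on the vertical axis (untreated upward, etoposide downward); filled circles are shared, open circles belong to 1 list, and grey bars are the genes. The highest peak, 44 untreated and 31 etoposide fragments, lies past the end of IGFBP4; at the right of the IGFBP2-IGFBP5 panel a shared and a single untreated peak of 16 fragments nearly coincide.

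Across the axis, the untreated and etoposide lists were then compared as a whole. Of the 30 untreated peaks 15 were shared, 50% (Wilson interval 33.2% to 66.8%), where 51.0% of all untreated peaks were. Of the 22 etoposide peaks 15 were shared, 68.2% (47.3% to 83.6%), against 64.8% of all etoposide peaks. Both shares were near those of the whole lists. The untreated list had more peaks than the etoposide list at 7 of 10 genes, the same number at IGF1, IGFBP1 and IGFBP3, and fewer at none. By locus it had more at 6 of 8 and the same number at 2. Over all protein-coding genes 45.6% had more untreated and 12.9% more etoposide peaks. These shares include genes with no peak in either list, whereas every gene of the axis had a peak. They are therefore too low to compare directly with 7 of 10, and the share over genes with a peak was not counted. The ratio of etoposide to untreated peak numbers was 0.733 on the axis and 0.791 over the whole lists.

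Shared peaks were stronger than those of a single list. Untreated shared peaks had a median of 22 fragments (9 to 58) and untreated peaks without a counterpart a median of 10 (5 to 21). The etoposide medians were 17 (8 to 39) and 9 (5 to 24). In the windows of all protein-coding genes the corresponding medians were 19 and 12 untreated, and 14 and 10 etoposide. Of the 12 untreated peaks ranked 10000 or better 9 had a counterpart of any rank (75%, against 81.3% of all such peaks). Of the 12 such etoposide peaks 10 did (83.3%, against 84.8%). The untreated exceptions were those inside IGFBP4, above the upper coordinate of IGFBP7 and past the end of IGF1R, each with 21 fragments. The etoposide exceptions were those inside IGF1R with 24 and inside IGF1 with 13. Of the weaker peaks, 6 of 18 untreated (33.3%, against 37.6%) and 5 of 10 etoposide (50%, against 51.9%) were shared.

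At the 15 shared places the ratio of etoposide to untreated fragments ran from 0.522 at 218 kb in IGF1R to 1 at the IGFBP1-IGFBP3 place and upstream of IGFBP5. Its median was 0.727. Over all 15245 pairs in which each peak had a single counterpart the median was 0.778 (quartiles 0.622 and 1). The etoposide count was lower at 13 of the 15 places, and in 73.7% of all pairs. The exact interval of the ratio took in the depth ratio of 0.836 at 15 of 15 places, and it took in 1 at 15 of 15. No difference in JUNB beyond counting error was therefore found at any single shared place of the axis. This does not show that occupancy was equal there. For the strongest IGF1R peak the ratio was 0.672 (0.436 to 1.03), and for the peak past IGFBP4 it was 0.705 (0.430 to 1.14).

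**Figure D4:**
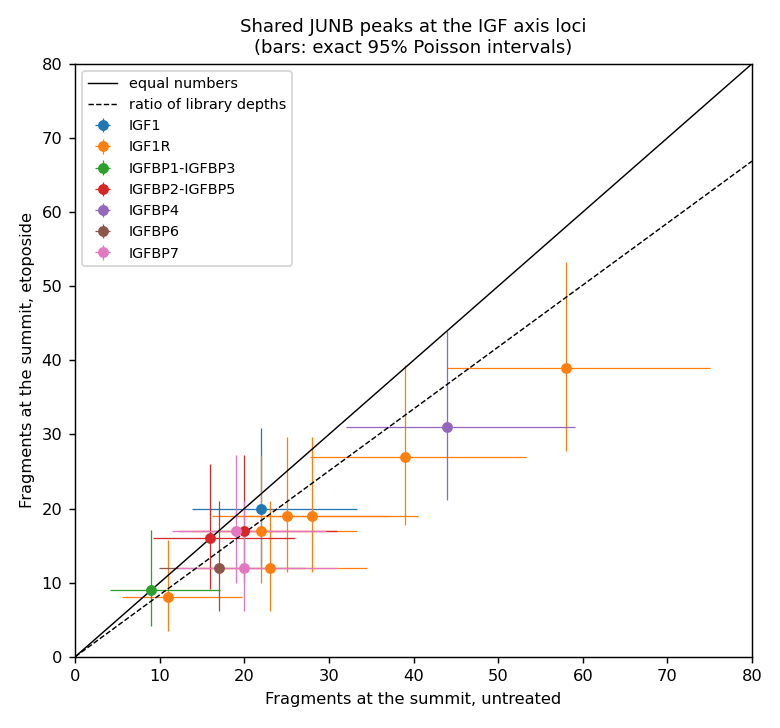
Fragments at the summit in the untreated library (horizontal axis) and the etoposide library (vertical axis) for the 15 shared JUNB peaks of the axis, coloured by locus, with exact 95% Poisson intervals from counting alone; the solid line marks equal numbers and the dashed line the estimated depth ratio of 0.836. Of the points, 13 lie below the solid line and 2 on it, and the strongest is the IGF1R peak with 58 and 39 fragments.

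Other genes of IGF signalling were counted from a list of 26. Within 50 kb 22 had an untreated peak (84.6% in place of 72.0% for all protein-coding genes) and 19 an etoposide peak (73.1%, against 62.6%). A shared peak was present at 15 of 26 (51.1% of all protein-coding genes had one). Peaks in both lists were found for 18 of 26, where 58.6% of all genes had them. These included IGF2R, which clears IGF2, the adaptors IRS1, SHC1 and GRB10, the binding protein proteases PAPPA, PAPPA2, HTRA1, ADAM12 and CTSD, the protease inhibitors STC1 and STC2, the mRNA-binding proteins IGF2BP1, IGF2BP2 and IGF2BP3, the PI3 kinase subunits PIK3CA and PIK3R1 and the transcription factor FOXO3. INS, INSR, FOXO1 and IGFBPL1 had a peak in the untreated list alone (13.5% of all genes), and the INS peak was the one inside IGF2. The adaptor gene IRS2 had a peak in the etoposide list alone (4.05% of all genes), and GHR, AKT1 and IGFALS had none.

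The strongest peak of this list was at PAPPA, whose protein cuts IGFBP4. It had 41 untreated fragments (chr9:116377364-116378045, rank 535) and was shared, and PAPPA had 10 untreated and 7 etoposide peaks in all. Next were the peaks at PIK3R1, with 37 untreated fragments (chr5:68333735-68334418, rank 1716), and IGF2BP1, with 28 (chr17:49076734-49077252, rank 2149), both shared. The PAPPA summit lay inside the gene, but those of PIK3R1 and IGF2BP1 lay outside, above the upper coordinate of the span. At PIK3R1 the etoposide counterpart had 19 fragments (rank 4270). The strongest etoposide peaks at PAPPA, with 19 fragments (rank 3349), and IGF2BP1, with 22 (rank 2257), lay at other places, for IGF2BP1 also outside the gene. These differences were not tested. ADAM12, which has a span of 376 kb, had the most peaks, 17 untreated and 10 etoposide. More untreated than etoposide peaks were counted at 18 of the 26 genes (45.6% of all genes), and more etoposide peaks at STC1, STC2 and IRS2 (12.9% of all genes). The shares of all genes again include genes with no peak in either list, which are fewer in this list of 26.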

How the data were processed

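JUNB CUT&RUN peaks of 1 untreated and 1 etoposide-treated IMR-90 library were analysed from the 2 deposited narrowPeak lists, on chromosomes 1 to 22 and X. Bowtie2, MACS2 and the builds mm10 and hg38 are named in the submitters' processing notes, with no role, version or setting. The contig names are those of GRCh38. In the deposited columns the fold is the ratio of summit signal to local background, the significance is -log10 p and -log10 q, the score is 10 times -log10 q, and the last column is the summit offset in bp. These values are the authors' own and served to describe, rank or filter peaks within a list and to work out the fragment numbers, which were set side by side between the libraries. No control library was used here.

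From them, with Python 3.11.15, a whole number of fragments k and a background b were solved from fold = (k + 1)/(b + 1), with a pseudocount of 1, and the Poisson upper tail. This fitted 100% of peaks within 0.001 of the deposited -log10 p, and the method was tested on simulated data. The depth ratio of 0.836 divides the ratio between the lowest backgrounds (0.782) by that between the smallest widths (0.936), and rests on reading these as genome-wide coverage and fragment length. Peaks were shared when they overlapped by at least 1 bp. Rank is by -log10 q. Shares have Wilson intervals, fragments exact Poisson intervals and fragment ratios exact binomial intervals, all for counting error only, since reads carried no stated molecular identifiers. Gene spans and start sites are RefSeq, GRCh38 patch 14. Exon boundaries were not used here. Members and lists were chosen with earlier results of these data known. Every member was named, other IGF pathway genes were given by status with values for the 3 strongest (1 gene of that list is counted but not reported here by name), and the remark on ADAM12 was added after its values were seen. Alternatives were other windows, stricter lists, other criteria of sharing and, added after seeing the data, the genes without IGF1R.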

Additional observations from a re-analysis of the deposited data

How the results depend on the processing

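The numbers rest on list length, window and IGF1R. Among the 10000 strongest peaks of each list, 6 genes of the axis had an untreated peak in place of 10 and 6 an etoposide peak in place of 9, and there were 12 untreated and 12 etoposide peaks in place of 30 and 22. The excess of untreated peaks on the axis was thus not present among equal numbers of strong peaks. Shares of all protein-coding genes were not counted in these shorter lists, so the 6 genes have no share to compare with. At a -log10 q of at least 5, untreated peaks were left at 8 genes and etoposide peaks at 9. This change in order came from the single weak place common to IGFBP1 and IGFBP3, and peaks numbered 24 untreated and 18 etoposide. With a window of 10 kb, 5 genes had an etoposide peak in place of 9, and with 100 kb there were 34 etoposide peaks. Without IGF1R, an alternative added after seeing the data, 18 untreated and 11 etoposide peaks were left. The shared share of untreated peaks ran from 36.7%, with overlap of at least 50% of both peaks, to 66.7% among the 10000 strongest, where the counterpart must also be among them, and that of etoposide peaks from 50% with the same overlap to 72.7% without IGF1R. These stayed within the counting intervals of 50% and 68.2%. No paired analysis was possible because each condition had 1 library. Peak lists show no signal under the threshold, so a peak missing from a list is not an absence of JUNB.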
